A study of Homo sapiens with 12 samples.

Results

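Geniposide is an iridoid glycoside of gardenia fruit, and Huh7 is an established line from a human hepatocellular carcinoma. The series holds 12 RNA samples from cells labelled Huh7 or HepG2, and the 6 labelled Huh7 are described here, chosen by that label: 3 left untreated and 3 given geniposide, all collected after 48 h. The study's title places its question in a slowing of liver tumour growth through the oxidase DUOX1 and ferroptosis. The labels give no dose, no vehicle and no genetic change, and a line comes from a single tumour. Nor do they say if the 3 samples per group came from separate cultures, so the p-values cover the spread among these libraries, perhaps a technical one. Each member gene has 6 values in FPKM (fragments scaled to gene length and library size), given below in the order untreated 1 to 3, then treated 1 to 3. The numbers are names and carry no order.

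Several arms of the stress response are read out by the genes described here. When amino acids are short, a protein folds badly in the endoplasmic reticulum (ER) or haem is lacking, a kinase phosphorylates the initiation factor eIF2. Most translation slows, while ATF4 is translated and, with C/EBP partners, raises genes for amino acid synthesis, uptake and tRNA charging. In the ER the sensors IRE1 (gene ERN1) and ATF6 raise the folding machinery of the secretory pathway, and in the cytosol HSF1 raises the heat shock chaperones. Ferroptosis is a death by peroxidation of membrane lipids, held back by cystine uptake, glutathione and GPX4, and tumour cells of the liver are often studied for it.

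Between 15056655 and 16043058 fragments per library were assigned to genes, and 3 fragments on a transcript of 1 kb correspond to 0.161 to 0.181 FPKM. Treated library 3 stood apart from the other treated libraries. The chi-square per degree of freedom between libraries was 2.20 to 2.45 for the untreated pairs and 3.01 for treated 1 with treated 2, but 43.4 and 44.9 for treated 3 with treated 1 and with treated 2. Between 13206 and 13276 genes reached 1 FPKM in the untreated libraries, against 13860, 13873 and 13343 in the treated ones, and lncRNA genes took 1.68% to 1.74% of the fragments untreated and 2.06%, 2.01% and 1.86% treated. List counts and the changes of genes called with 6 libraries are therefore given with all 6 libraries and with 5, treated library 3 left out.

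Secreted hepatocyte products were near absent. Of 20 such genes only APOE passed the filter on low values, 7 were listed at 0 in all 6 libraries, and the summed level was 2.92, 2.21 and 3.004 FPKM untreated and 3.36, 3.91 and 2.56 FPKM treated. ALB, TTR, AFP, APOB and SERPINA1 were at or near 0 in all 6. These libraries are therefore called Huh7-labelled by their label only. GPC3, a fetal antigen of liver tumours, was present at 27.6, 25.4 and 25.8 FPKM untreated and 23.8, 22.8 and 8.55 FPKM treated. It belongs to 10 fetal and tumour markers, of which only 3 passed the filter and 2 were listed at 0 in all 6 libraries. Of 12 hepatocyte transcription factors 5 passed the filter, CEBPB among them. All 12 summed to 50.6 to 57.2 FPKM untreated and 79.8, 86.1 and 93.0 FPKM treated. CEBPB, whose values are given further on, rose by more FPKM than this sum did, so the sum does not stand for the other factors. The 10 fetal and tumour markers, GPC3 included, summed to 61.8 to 65.5 FPKM untreated and 51.4, 51.6 and 36.7 FPKM treated, and the 7 cholangiocyte markers to 3.82 to 4.62 FPKM and 3.69, 4.32 and 2.65 FPKM. Endothelial markers summed to at most 0.39 FPKM and leukocyte markers to at most 1.85 FPKM. The 8 fibroblast markers, mostly VIM, summed to 65.6 to 66.4 FPKM untreated and to 61.3, 68.6 and 31.6 FPKM treated, with the low value in treated library 3. The part of this in other results was not tested.

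Geniposide was accompanied by small changes in a large number of genes. On log2(FPKM + 1), with the 13563 genes that reached 1 FPKM in 3 or more of the 6 libraries, limma with Benjamini-Hochberg adjustment at 0.05 called 3418 genes with 6 libraries, 25.2% of those tested: 1583 higher (11.7%) and 1835 lower (13.5%) after treatment. With 5 libraries it called 6806 (50.2%), 3190 higher (23.5%) and 3616 lower (26.7%). The balance depended on the scaling: higher genes were 46.3% of the calls with 6 libraries and 46.9% with 5, against 61.4% and 59.0% when the values were scaled to TPM, and 35.5% and 36.5% with a filter at 5 FPKM. The median change of all genes tested was −0.01 with 6 libraries and 0.00 with 5, and the median size of a called change was 0.48 and 0.37. Changes of at least 2-fold on this scale were fewer, at 127 higher and 67 lower with 6 libraries and 150 and 77 with 5. Groups without overlap were common: all 3 treated libraries lay above all 3 untreated for 3078 of the 13563 genes and below them for 3405. Groups said below to be apart are to be read beside these counts. For the largest changes named, groups apart was also a criterion of choice. All 3412 genes called in both fits had the same direction in both, which is 99.8% of the calls with 6 libraries and 50.1% of the calls with 5. The fits share 5 libraries, so this overlap is no independent support. Of the 6806 genes called with 5 libraries, treated library 3 lay beyond the mean of the other treated libraries for 2781, between it and the untreated mean for 2587, and on the other side of the untreated mean for 1438.

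**Figure D1:**
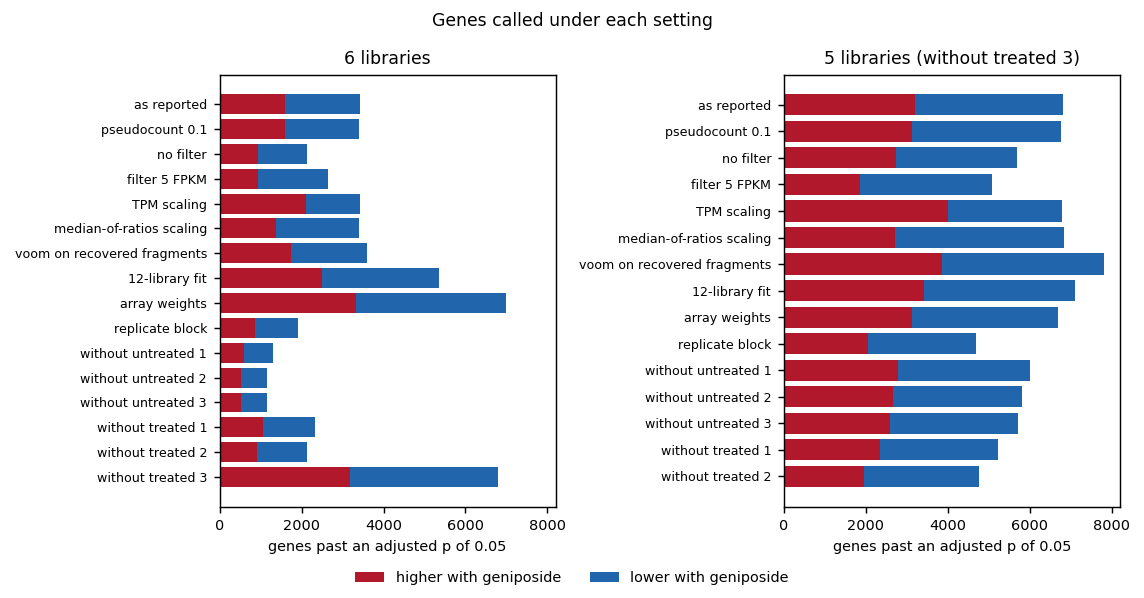
Horizontal bars count the genes called at an adjusted p under 0.05 under each way of processing, red for higher and blue for lower after geniposide, for the fit with 6 libraries (left) and with 5 (right). With 6 libraries the counts run from 1146 when an untreated library is left out to 6990 when libraries are weighted by their spread, and every count with 5 libraries is above the 3418 that the 6 libraries give as reported.

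Because a call with 6 libraries can rest on how one library is handled, each was recomputed under 15 alternatives, which include leaving out each of the 6 libraries in turn. Of the 278 called members of the 40 gene lists used below, 133 kept the call under every alternative that tested them, 40 of them higher and 93 lower. Over all genes it was 1001 of 3418. Each list count below is to be read beside the share of all genes tested that was called in that direction. This was 11.7% higher and 13.5% lower with 6 libraries, and 23.5% and 26.7% with 5. The lists were chosen with earlier results of these data known. A count above that share therefore describes the list and is no independent support. Genes under the filter at 5 FPKM were tested in 14 of the 15. A gene written below as having risen or fallen kept its call under each alternative that tested it unless its sentence says otherwise, and so passed with 5 libraries too. Where an untreated library is said to be left out, each of the 3 was, in turn. Such a fit has 3 residual degrees of freedom, where all 6 libraries leave 4, and it keeps treated library 3. A call lost in it does not by itself mark the untreated values as unstable. Changes are treated minus untreated means on log2(FPKM + 1) with their standard errors (n = 3 and 3, or 3 and 2 with 5 libraries), a value marked with 5 is the change in that fit, and this scale understates the change of genes at a few FPKM. In bulk RNA, fewer cells of a kind and less RNA per cell cannot be told apart.

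**Figure D2:**
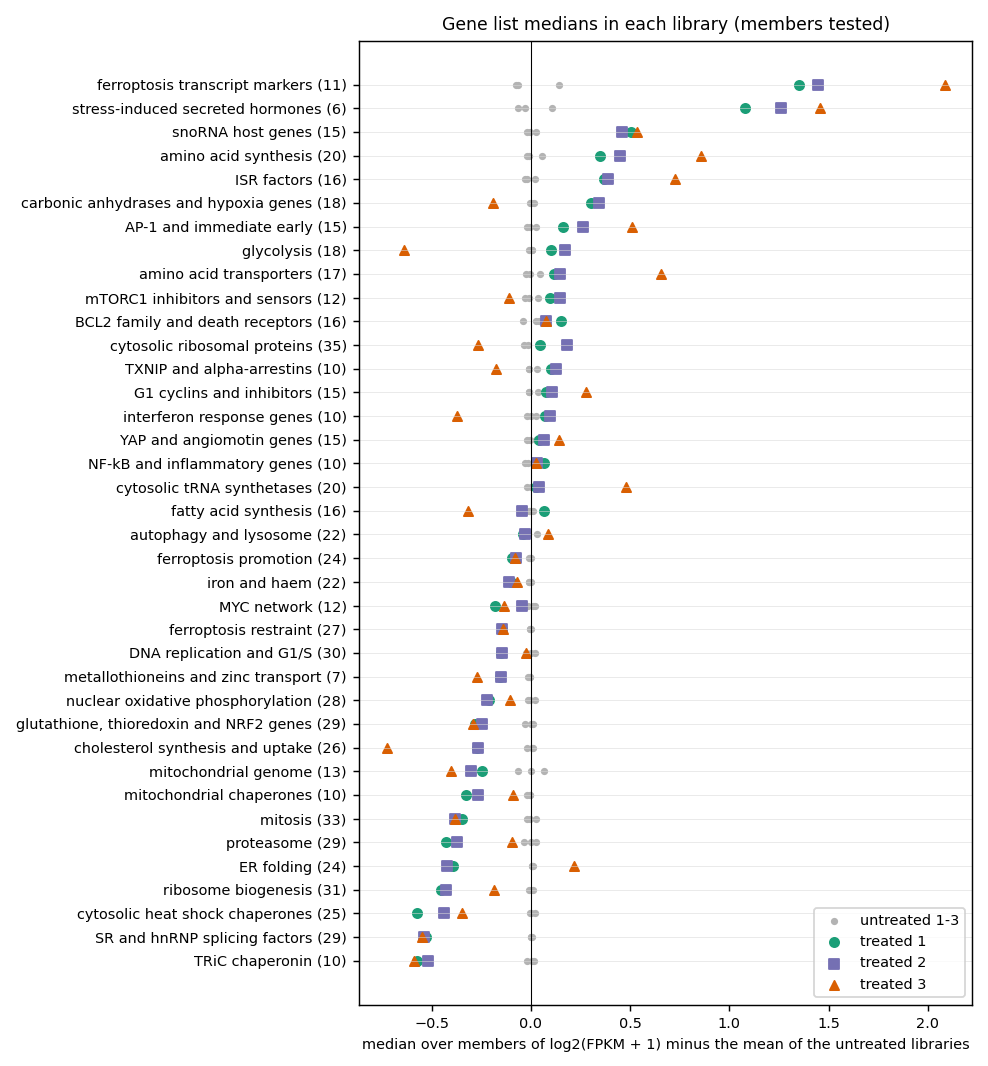
Median over the tested members of the gene lists shown, each with at least 5 such members, of the log2(FPKM + 1) difference from the untreated mean, one point per library: grey for untreated, and a circle, square and triangle for treated libraries 1, 2 and 3, whose numbers have no order. The lists of splicing factors, TRiC subunits and heat shock chaperones lie below 0 in all 3 treated libraries, and among the lists where treated library 3 is on the other side of 0 from treated libraries 1 and 2 are ER folding, glycolysis, and the carbonic anhydrase and hypoxia list.

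Of 16 tested factors of the integrated stress response, 7 passed as higher and none as lower with 6 libraries, at a list median of 0.48, and 8 were higher and 4 lower with 5, at a median of 0.38. ATF3, DDIT3, CEBPB, CEBPG and TRIB3 were among the 7, while ATF4 mRNA itself was not called. Without untreated library 1, 2 or 3 the count of higher factors was 6, 6 and 6. ATF3, a stress-induced repressor and activator of the ATF family, stood at 11.8, 10.04 and 9.94 FPKM untreated and 75.6, 92.8 and 195 FPKM treated. Every treated library was above every untreated one, and treated library 3 was the highest. ATF3 rose by 3.28 ± 0.33 (adjusted p = 0.0027) with 6 libraries and by 2.88 ± 0.11 (adjusted p = 6.55e-05) with 5. DDIT3, which encodes CHOP, a C/EBP-family factor of prolonged stress, stood at 3.27, 3.14 and 3.83 FPKM untreated and 18.5, 21.9 and 19.9 FPKM treated. The 3 treated values lay close together and did not overlap the untreated ones. DDIT3 rose by 2.26 ± 0.094 (adjusted p = 0.000735) with 6 and 2.26 ± 0.10 (adjusted p = 8.12e-05) with 5.

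CEBPB, a C/EBP factor of stress and inflammation, stood at 21.7, 17.8 and 19.9 FPKM untreated and 50.4, 55.7 and 64.4 FPKM treated and CEBPG, a dimer partner of ATF4, at 21.5, 19.7 and 19.3 FPKM untreated and 48.9, 46.9 and 60.9 FPKM treated. In both genes the groups were well apart, and the changes were 1.47 ± 0.11 (adjusted p = 0.00152, and 1.38 ± 0.086 with 5) and 1.32 ± 0.11 (adjusted p = 0.00173, and 1.21 ± 0.053 with 5). TRIB3, a pseudokinase induced by this pathway, rose by 1.73 ± 0.29 (adjusted p = 0.00921, and 1.39 ± 0.10 with 5) from 10.3, 7.89 and 8.95 untreated to 24.1, 26.3 and 52.1 FPKM treated, with treated library 3 the highest. JDP2, a bZIP repressor, rose by 0.59 ± 0.095 (0.60 ± 0.10 with 5). PPP1R15A, the phosphatase subunit that removes the phosphate from eIF2, was at 10.9, 11.9 and 10.3 FPKM untreated and 26.9, 30.8 and 75.2 FPKM treated. It was called with 6 libraries (1.76 ± 0.36, adjusted p = 0.0175, and 1.31 ± 0.078 with 5) but not without an untreated library (adjusted p = 0.0622 to 0.0709). ATF4 mRNA stood at 257, 245 and 236 FPKM untreated and 252, 274 and 315 FPKM treated, overlapping groups, with a change of 0.18 ± 0.10 (adjusted p = 0.212) and 0.094 ± 0.053 with 5 libraries (adjusted p = 0.187). NUPR1, a stress cofactor, was at 2.17, 1.82 and 1.68 FPKM untreated and 3.27, 3.398 and 11.2 FPKM treated and passed with 5 libraries but not with 6 (adjusted p = 0.0932 with 6 and 0.00348 with 5). The 4 factors called lower with 5 libraries and not with 6 were ATF5, EIF2S1, which encodes the alpha subunit of eIF2, and the eIF2 kinases EIF2AK1 and EIF2AK4. With 6 libraries the list had 4 lower calls with array weights, which weight libraries by their spread, and 2 each with median-of-ratios scaling and in a fit over 12 libraries.

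**Figure D3:**
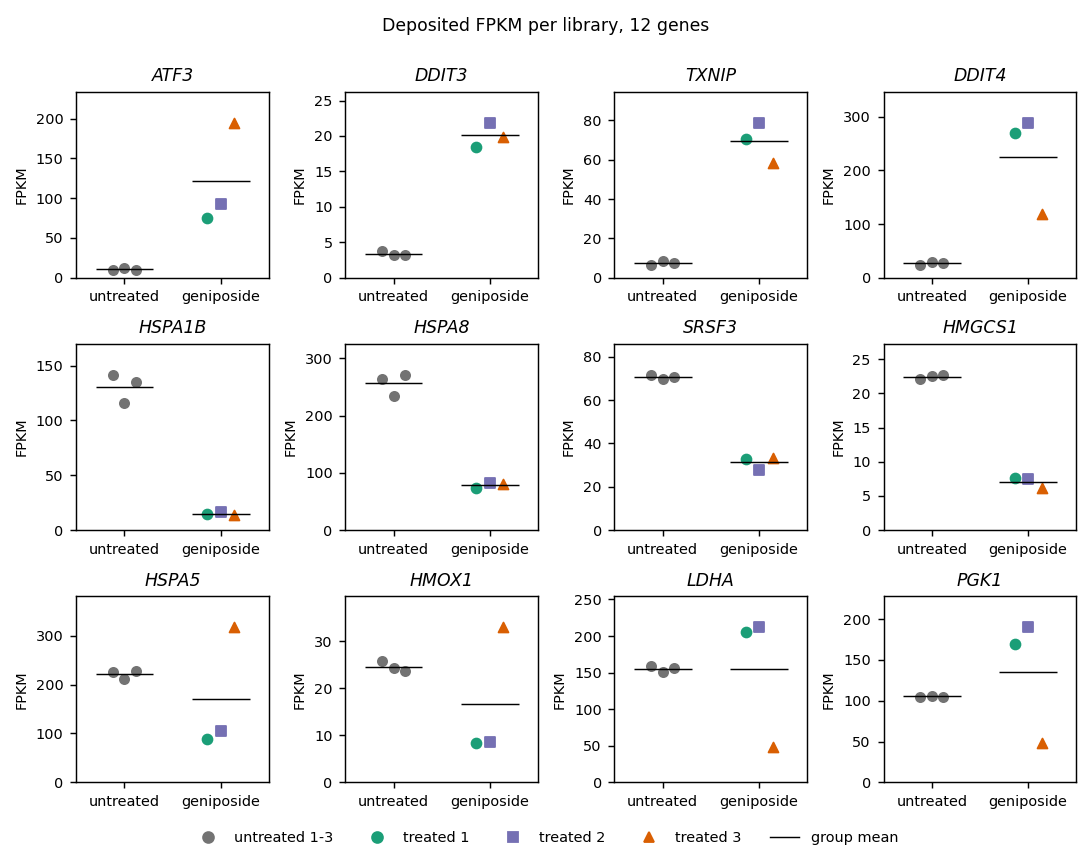
FPKM (linear axis from 0) in each of the 6 libraries for 12 genes, one panel a gene; grey points are untreated libraries, the circle, square and triangle are treated libraries 1, 2 and 3, and lines are group means. ATF3, DDIT3, TXNIP and DDIT4 are higher and HSPA1B, HSPA8, SRSF3 and HMGCS1 lower in all 3 treated libraries, while for HSPA5, HMOX1, LDHA and PGK1 treated library 3 lies on the far side of the untreated libraries from treated libraries 1 and 2.

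The composite C/EBP-ATF element, bound by ATF4 with a C/EBP partner, was searched in the RefSeq promoters of GRCh38.p14 (250 bases before to 50 after each start) as TGATGNAA on both strands. It was present in 3.62% of the 35116 windows. The lists held it in 4 of 25 windows of the stress factors (16.0%), 5 of 21 of the amino acid enzymes, 5 of 32 of the transporters and 7 of 21 of the tRNA synthetases (33.3%). In that order the windows cover 14 of 16, 13 of 20, 16 of 17 and 16 of 20 tested genes. Of the 4 factors with a match, ATF3, CEBPG, JDP2 and PPP1R15B, 3 passed as higher in both fits. Of 3 enzymes with one, 1 passed as higher with 6 libraries and 2 with 5, and of 5 transporters 3 and 4. 7 tRNA synthetases held one and 3 of them passed as higher with 6 libraries and 5 with 5. A match describes letters, not a bound site. Whether a match went with a call was not tested, and the counts of the whole lists stand in the paragraphs on each list. Stretches are shown for 3 genes that rose by over 1.5 on the log2 scale, as the places where such a match lies near the start: ATF3 at chr1:212565166-212565273 on the plus strand, CHAC1 at chr15:40953221-40953319 on the plus strand with its match read on the other strand, and ASNS at chr7:97872419-97872526 on the minus strand. Capitals mark the match. In ASNS it overlaps a match to the heat shock element described further on.
ATF3: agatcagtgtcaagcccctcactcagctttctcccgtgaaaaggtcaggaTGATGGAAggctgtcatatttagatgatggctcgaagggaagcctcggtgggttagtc
CHAC1: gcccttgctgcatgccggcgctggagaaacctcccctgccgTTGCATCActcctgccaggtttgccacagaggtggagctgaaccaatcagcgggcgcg
ASNS: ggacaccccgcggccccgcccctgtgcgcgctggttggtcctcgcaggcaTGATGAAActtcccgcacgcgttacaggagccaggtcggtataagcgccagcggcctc

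Of 20 tested enzymes of amino acid synthesis, 10 passed as higher and 2 as lower with 6 libraries (median 0.49), and 13 and 4 with 5 (median 0.40). ASNS and CTH were the furthest up and GLUL the furthest down. Without untreated library 1, 2 or 3 the higher calls were 6, 5 and 5 and the lower 1, 1 and 1. ASNS, asparagine synthetase, stood at 1.503, 1.16 and 1.15 FPKM untreated and 5.93, 5.83 and 8.16 FPKM treated. No treated library overlapped the untreated ones, and ASNS rose by 1.74 ± 0.14 (adjusted p = 0.00168, and 1.60 ± 0.091 with 5). PSPH, the last step of serine synthesis, rose by 0.98 ± 0.12 (0.85 ± 0.053 with 5) from 13.4, 12.8 and 11.9 untreated to 23.8, 23.5 and 31.6 FPKM treated. GPT2, the mitochondrial alanine transaminase, rose by 0.88 ± 0.088 (0.80 ± 0.051 with 5) from 15.9, 14.9 and 14.2 untreated to 26.97, 26.8 and 31.8 FPKM treated. ASS1, argininosuccinate synthase, rose by 0.74 ± 0.11 (0.64 ± 0.068 with 5), and SHMT2, the mitochondrial serine hydroxymethyltransferase, by 0.47 ± 0.071 (0.50 ± 0.053 with 5). Treated library 3 was the highest library for each of ASNS, PSPH and GPT2. GLUL, glutamine synthetase, fell by 0.84 ± 0.075 (adjusted p = 0.00196, and −0.78 ± 0.047 with 5), at 40.1, 37.4 and 36.6 FPKM untreated and 22.03, 21.4 and 19.3 FPKM treated, groups that did not overlap. CTH, which makes cysteine from cystathionine, was at 17, 15.3 and 16.7 FPKM untreated and 47.3, 48.4 and 140.3 FPKM treated, so that treated library 3 was well above the other treated libraries. It was called with 6 libraries (2.01 ± 0.41, adjusted p = 0.0163, and 1.499 ± 0.052 with 5), but not without an untreated library (adjusted p = 0.0613 to 0.0657), and with 5 it passed as higher (adjusted p = 6.55e-05). PSAT1, at 148, 136 and 142 FPKM untreated and 248, 243 and 404 FPKM treated, was likewise lost without an untreated library (adjusted p = 0.0549 to 0.0612, and 0.78 ± 0.043, adjusted p = 0.000125, with 5), as was PHGDH without untreated library 2 or 3 (adjusted p = 0.0527 and 0.056, and 0.43 ± 0.045, adjusted p = 0.000802, with 5).

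Amino acid transporters gave 6 higher and no lower of 17 with 6 libraries (median 0.35), and 9 higher and 2 lower with 5 (median 0.13). The median in treated library 3 alone was 0.65. SLC7A11, the cystine importer of system xc-, stood at 6.88, 5.86 and 5.77 FPKM untreated and 17.3, 15.99 and 33.7 FPKM treated. The groups did not overlap, treated library 3 was the highest, and SLC7A11 rose by 1.63 ± 0.27 (adjusted p = 0.00916, and 1.3 ± 0.08 with 5). SLC7A1, a carrier of cationic amino acids, rose by 0.97 ± 0.16 (0.78 ± 0.041 with 5), from 44.9, 43.4 and 41.4 untreated to 75.1, 74.99 and 113 FPKM treated. SLC6A9, a glycine carrier, rose by 1.14 ± 0.084 (1.06 ± 0.049 with 5) from 4.52, 4.29 and 4.19 untreated to 10.2, 10.1 and 12 FPKM treated. SLC43A1, a carrier of large neutral amino acids, rose by 0.90 ± 0.087 (0.91 ± 0.087 with 5). SLC1A4 was called with 6 libraries but not without untreated library 2 or 3 (adjusted p = 0.0576 and 0.0617, and 1.08 ± 0.094, adjusted p = 0.000427, with 5).

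The cytosolic tRNA synthetases charge tRNAs with their amino acids. With 6 libraries 4 of 20 passed as higher and 2 as lower, and with 5 libraries 9 and 7, at list medians of 0.10 and 0.03. In treated library 3 the median was 0.48. Without an untreated library the counts were 2, 2 and 2 higher and 1, 1 and 1 lower. All genes together gave 25.2% called with 6 libraries and 50.2% with 5. AARS1 stood at 92.04, 85.9 and 85.8 FPKM untreated and 134, 148 and 179.9 FPKM treated, and rose by 0.79 ± 0.11 (adjusted p = 0.006, and 0.68 ± 0.055 with 5). CARS1 rose by 0.80 ± 0.092 (0.71 ± 0.046 with 5) from 6.81, 6.81 and 6.46 untreated to 11.3, 11.8 and 14.1 FPKM treated. HARS1 fell by 0.58 ± 0.077 (adjusted p = 0.00497, and −0.52 ± 0.048 with 5) from 9.87, 9.67 and 9.26 untreated to 6.22, 6.56 and 5.54 FPKM treated. In all 3 genes the treated libraries lay on one side of the untreated. GARS1 was called higher with 6 libraries but not without an untreated library (adjusted p = 0.0605 to 0.065, and 0.56 ± 0.037, adjusted p = 0.000182, with 5).

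Inhibitors and sensors of mTORC1, the kinase complex that couples nutrients to growth, gave 3 higher and no lower of 12 with 6 libraries and 6 higher and 2 lower with 5. The count with 6 libraries was near the 25.2% of all genes called, and 50.2% of all genes were called with 5. DDIT4, an inhibitor of mTORC1 also known as REDD1, stood at 29.8, 27.9 and 23.9 FPKM untreated and 270.2, 289 and 118 FPKM treated. All treated libraries were above the untreated, and treated library 3 was the lowest of them. The change was 2.91 ± 0.34 (adjusted p = 0.00361) with 6 libraries and 3.32 ± 0.092 (adjusted p = 5.95e-05) with 5. SESN2, a leucine sensor, rose by 1.18 ± 0.13 (1.11 ± 0.12 with 5) from 45.4, 33.7 and 35.04 untreated to 81.8, 83.1 and 96.2 FPKM treated.

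Of 6 stress-induced secreted factors 3 passed as higher with 6 libraries (median 1.22) and all 6 with 5 (median 1.18). STC2, a secreted glycoprotein of the stress response, rose by 1.68 ± 0.13 (1.54 ± 0.072 with 5) from 19.4, 16.8 and 16.7 untreated to 54.7, 51.6 and 70.3 FPKM treated. VEGFA, the vascular growth factor, rose by 0.99 ± 0.065 (adjusted p = 0.00126, and 0.97 ± 0.052 with 5) from 4.75, 4.77 and 4.43 untreated to 9.86, 10.3 and 10.6 FPKM treated. ADM2, a peptide of the calcitonin family, rose by 1.45 ± 0.19 (1.24 ± 0.11 with 5). The treated values of VEGFA lay within a narrow band that included treated library 3. INHBE, a subunit of activin E, was at 0.574, 0.394 and 0.461 FPKM untreated and 2.35, 2.91 and 26.1 FPKM treated, with treated library 3 far above all others, and passed with 5 libraries but not with 6 (1.29 ± 0.12, adjusted p = 0.000563, against 0.0747 with 6).

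Immediate-early and AP-1 genes gave 7 higher and 2 lower of 15 with 6 libraries (median 0.38) and 8 and 4 with 5. Without untreated library 1 or 2 the higher calls were 4 and 4. JUN stood at 114, 115 and 109 FPKM untreated and 466, 582 and 302 FPKM treated, with treated library 3 the lowest of the treated but still above every untreated library. JUN rose by 1.94 ± 0.23 with 6 libraries (adjusted p = 0.00363) and 2.20 ± 0.092 with 5, JUND by 0.86 ± 0.12 (0.98 ± 0.077 with 5) and KLF10, a zinc finger repressor, by 1.19 ± 0.12 (1.06 ± 0.059 with 5). Among the MAP kinase phosphatases DUSP1 rose by 1.41 ± 0.23 (1.16 ± 0.12 with 5), from 20.7, 19.5 and 16.1 untreated to 38.9, 47.2 and 73.9 FPKM treated, and DUSP5 fell by 0.77 ± 0.088 (−0.78 ± 0.087 with 5). KLF6 was called higher with 6 libraries but not without an untreated library (adjusted p = 0.0544 to 0.061, and 1.11 ± 0.066, adjusted p = 0.000149, with 5).

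TXNIP binds thioredoxin and lowers glucose uptake, and its gene is driven by the glucose sensors MLXIP and MLX. TXNIP stood at 8.36, 7.67 and 6.496 FPKM untreated and 70.8, 78.8 and 58.3 FPKM treated, groups far apart, with treated library 3 the lowest of the treated. The rise was 3.04 ± 0.13 (adjusted p = 0.000735) with 6 libraries and 3.16 ± 0.10 (adjusted p = 6.55e-05) with 5. ARRDC4, its closest relative in the list, rose by 1.64 ± 0.10 (adjusted p = 0.00126, and 1.54 ± 0.054 with 5) from 8.61, 7.88 and 8.42 untreated to 25.1, 26.98 and 32.5 FPKM treated. MLX itself fell by 0.42 ± 0.061 (−0.44 ± 0.044 with 5), and TXN, thioredoxin, fell by 0.70 ± 0.063 (−0.71 ± 0.046 with 5) from 243, 229 and 246 untreated to 149.8, 142 and 148 FPKM treated. The whole list of 10 gave 4 higher and 3 lower with 6 libraries and 5 and 4 with 5, and 2 higher when any one library other than treated 3 was left out. ARRDC3 was among the 4, and was lost without an untreated library (adjusted p = 0.0708 to 0.0796, and 1.297 ± 0.071, adjusted p = 0.000127, with 5).

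Of 25 tested heat shock chaperones and co-chaperones 16 passed as lower and none as higher with 6 libraries (median −0.51), and 20 lower and 2 higher with 5 (median −0.53). The lower calls were 11, 11 and 11 without untreated library 1, 2 or 3. HSPA1B, the stress-inducible HSP70, stood at 116, 135 and 141 FPKM untreated and 14.5, 16.5 and 14.2 FPKM treated. The 3 treated libraries were alike and far below the untreated. HSPA1B fell by 3.03 ± 0.10 (adjusted p = 0.000387) with 6 libraries and by 2.99 ± 0.10 (adjusted p = 6.55e-05) with 5. HSPA1A, its near-identical neighbour on chromosome 6, stood at 11.2, 16.4 and 15.3 FPKM untreated and 0.777, 0.965 and 1.06 FPKM treated and fell by 2.97 ± 0.15 (−3.02 ± 0.16 with 5). How reads that match both copies were assigned is unknown here, so the split between them is uncertain. HSPA8, the constitutive HSP70, fell by 1.68 ± 0.085 (adjusted p = 0.000924, and −1.70 ± 0.08 with 5), at 233, 271 and 264 FPKM untreated and 73.4, 82.6 and 81.04 FPKM treated.

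Other members of the folding cycle followed at smaller size. HSP90AA1, the inducible cytosolic HSP90, fell by 1.35 ± 0.15 (−1.18 ± 0.046 with 5) from 390.1, 385 and 387 untreated to 179, 163 and 117 FPKM treated, lowest in treated library 3. HSPH1, a nucleotide exchange factor of HSP70, fell by 1.31 ± 0.11 (−1.42 ± 0.048 with 5) from 29.8, 30.2 and 29.3 untreated to 11.02, 9.99 and 13.4 FPKM treated. The J-domain co-chaperones DNAJA1 and DNAJB1 fell by 1.20 ± 0.19 (−1.43 ± 0.035 with 5) and 0.67 ± 0.10 (−0.77 ± 0.051 with 5). For HSPA4, another exchange factor, the values were 93.4, 96.9 and 94.9 FPKM untreated and 62.9, 60.5 and 99.3 FPKM treated: treated library 3 lay above every untreated library, and the fit with 5 libraries called it, the fit with 6 not (−0.61 ± 0.034, with an adjusted p = 0.172 in the fit with 6). HSP90AB1 was called lower with 6 libraries and just missed without an untreated library (adjusted p = 0.0503 to 0.0522, and −0.68 ± 0.033, adjusted p = 9.69e-05, with 5). HSF1, the factor that drives these genes, stood at 19.03, 18.2 and 17.3 FPKM untreated and 20.6, 20.4 and 15.9 FPKM treated, with a change of 0.052 ± 0.11 (adjusted p = 0.756) with 6 libraries and 0.17 ± 0.048 (adjusted p = 0.0294) with 5.

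The heat shock element was searched as GAANNTTC, which reads the same on both strands, and 6.77% of all promoter windows held it. Of the 34 windows of 22 heat shock list genes, 12 (35.3%) held it, over 11 genes. Of these 11 genes 8 passed as lower and none as higher with 6 libraries, and 10 lower with 5. The whole list of 25 gave 16 lower with 6 libraries and 20 with 5. Whether a match went with a fall was not tested. The 3 genes shown are the HSP70 genes with the falls given above: HSPA1B at chr6:31827583-31827690 on the plus strand, HSPA1A at chr6:31815387-31815494 on the plus strand, and HSPA8 at chr11:123062137-123062386 on the minus strand with a pair of matches. Over the 108 bases shown, the HSPA1A and HSPA1B stretches differ at 3 positions. Capitals mark GAANNTTC.
HSPA1B: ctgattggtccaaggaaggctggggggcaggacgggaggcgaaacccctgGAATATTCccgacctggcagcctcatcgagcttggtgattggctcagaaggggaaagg
HSPA1A: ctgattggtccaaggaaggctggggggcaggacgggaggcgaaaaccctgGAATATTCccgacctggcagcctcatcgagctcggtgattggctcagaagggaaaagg
HSPA8: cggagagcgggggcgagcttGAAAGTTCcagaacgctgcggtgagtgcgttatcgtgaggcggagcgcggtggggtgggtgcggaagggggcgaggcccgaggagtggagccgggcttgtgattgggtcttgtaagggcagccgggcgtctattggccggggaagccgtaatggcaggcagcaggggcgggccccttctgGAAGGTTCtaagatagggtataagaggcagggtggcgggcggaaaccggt

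The TRiC chaperonin is a ring that folds actin, tubulin and other proteins. Of 10 tested genes of its subunits and helpers 9 passed as lower with 6 libraries (median −0.50) and all 10 with 5 (median −0.55). The lower calls were 6, 6 and 5 without untreated library 1, 2 or 3. TCP1, the first subunit named, stood at 95.7, 95.01 and 98.3 FPKM untreated and 59.6, 60.4 and 59.4 FPKM treated, and fell by 0.68 ± 0.055 (adjusted p = 0.00168, and −0.67 ± 0.031 with 5). CCT6A fell by 0.96 ± 0.074 (−1.01 ± 0.048 with 5) from 111, 109.5 and 111 untreated to 57.4, 51.8 and 60.5 FPKM treated, CCT8 by 0.70 ± 0.093 (−0.60 ± 0.03 with 5) and CCT3 by 0.53 ± 0.082 (−0.46 ± 0.037 with 5). PDCL3, a helper of the ring, fell by 1.20 ± 0.18 (−1.04 ± 0.14 with 5) from 11.4, 10.97 and 11.7 untreated to 6.18, 4.02 and 3.38 FPKM treated. In each of these genes the 3 treated libraries, the third included, lay below the 3 untreated ones. The same held for 3405 of the 13563 genes tested. CCT2 was called lower with 6 libraries but not without an untreated library (adjusted p = 0.0521 to 0.0583, and −0.56 ± 0.032, adjusted p = 0.000132, with 5).

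Of the chaperonin pair of the mitochondrial matrix, HSPD1 fell by 1.03 ± 0.14 (−0.87 ± 0.034 with 5), from 271, 265 and 273 untreated to 149.9, 144 and 106 FPKM treated. Its partner HSPE1 fell by 1.07 ± 0.069 (−1.04 ± 0.051 with 5), from 26.7, 26.8 and 28.3 untreated to 12.2, 13.4 and 11.9 FPKM treated. The list of 10 mitochondrial chaperones and proteases gave 4 lower and none higher with 6 libraries, 2 lower without untreated library 2, and 6 lower and 1 higher with 5.

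The proteasome degrades proteins tagged with ubiquitin. Of 29 tested subunits 14 passed as lower and none as higher with 6 libraries (median −0.35) and 27 lower with 5 (median −0.41), while the median in treated library 3 alone was −0.10. Without an untreated library the lower calls were 9, 9 and 9. PSMD1, of the regulatory particle, stood at 27.3, 26.4 and 27.6 FPKM untreated and 13.5, 12.5 and 12.9 FPKM treated, and fell by 1.01 ± 0.06 (adjusted p = 0.00121, and −1.01 ± 0.045 with 5). PSMD6 fell by 0.70 ± 0.059 (−0.70 ± 0.043 with 5) and PSMA4, of the catalytic core, by 0.63 ± 0.054 (−0.63 ± 0.033 with 5). For PSMD1 the treated libraries were close together and the groups far apart.

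**Figure D4:**
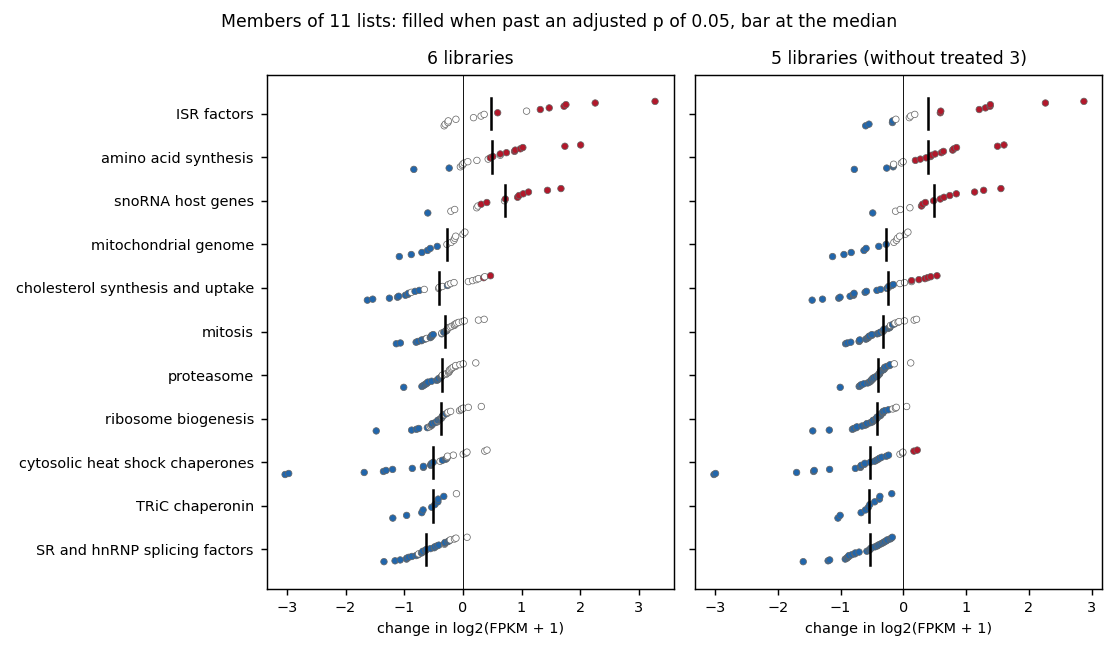
Change of each tested member of 11 gene lists, treated minus untreated on log2(FPKM + 1), with 6 libraries and with 5; a filled point passed at an adjusted p under 0.05 and a bar marks the list's median. TRiC subunits and splicing factors lie almost wholly below 0 in both fits, and the stress factors, amino acid enzymes and snoRNA hosts hold the highest values.

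For ER folding genes treated library 3 went the other way. Of 24 tested members 7 passed as lower and 1 as higher with 6 libraries (median −0.25), against 18 lower and 5 higher with 5 (median −0.41). The list's median was −0.39 and −0.42 in treated libraries 1 and 2 and 0.22 in treated library 3, which stood on the other side of the untreated mean for 12 of the 24. Without an untreated library the lower calls were 3, 3 and 3, and without treated library 1 or 2 they were 4 and 4. HSPA5, the ER HSP70 also called BiP, stood at 211, 227 and 226 FPKM untreated and 89.1, 104 and 317 FPKM treated. Treated libraries 1 and 2 were below and treated library 3 was above all untreated libraries. The change of HSPA5 was −0.62 ± 0.45 (adjusted p = 0.355) with 6 libraries and −1.19 ± 0.073 (adjusted p = 0.000158) with 5.

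Some members were lower in all 3 treated libraries. CALR, the lectin chaperone calreticulin, stood at 186, 182 and 185 FPKM untreated and 111, 113 and 117 FPKM treated, and fell by 0.69 ± 0.057 (adjusted p = 0.00172, and −0.71 ± 0.03 with 5). SDF2L1, a cofactor of BiP, fell by 0.70 ± 0.12 (−0.83 ± 0.037 with 5) from 72.4, 76.5 and 76.4 untreated to 42.1, 41.6 and 55.1 FPKM treated. CRELD2, an ER-resident protein, fell by 0.50 ± 0.064 (−0.55 ± 0.037 with 5). HSP90B1, the ER HSP90, was called lower with 6 libraries (−0.51 ± 0.12, adjusted p = 0.026, and −0.65 ± 0.03 with 5) but not without any one untreated library (adjusted p = 0.0886 to 0.0936), nor without treated library 1 or 2 (adjusted p = 0.0698 and 0.0761). PDIA4 was lost without an untreated library (adjusted p = 0.0537 to 0.0575, and −0.66 ± 0.028, adjusted p = 8.12e-05, with 5). The member called higher with 6 libraries was ERN1, the sensor IRE1, which rose by 0.76 ± 0.082 (0.72 ± 0.076 with 5) from 2.47, 2.29 and 2.53 untreated to 4.35, 4.99 and 5.07 FPKM treated. XBP1, whose mRNA IRE1 splices, stood at 55.05, 52.2 and 51.1 FPKM untreated and 82.6, 92.1 and 214 FPKM treated, and HERPUD1, of ER-associated degradation, at 13.9, 13.6 and 13.8 FPKM untreated and 19.3, 22.7 and 49 FPKM treated. For XBP1 the adjusted p was 0.0536 with 6 libraries and 0.000336 with 5 (0.71 ± 0.057).

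The ER stress element, CCAAT and CCACG with 9 bases between them, was searched on both strands. It was rare, in 0.0769% of all windows (27 of 35116). It was found in 9 of the 29 windows of 23 ER folding list genes (31.0%), over 7 genes. Of these 7, 4 passed as lower and none as higher with 6 libraries, and 6 lower and 1 higher with 5. The whole list of 24 gave 7 lower and 1 higher with 6 libraries, and 18 and 5 with 5. Whether a match went with a call was not tested. The stretches shown contrast HSPA5, where treated library 3 departed, with CALR, where it did not, and with HSP90B1, whose call was lost: HSPA5 at chr9:125241344-125241459 on the minus strand, CALR at chr19:12938359-12938452 on the plus strand with the match on the other strand, and HSP90B1 at chr12:103930166-103930389 on the plus strand with a match on each strand. Capitals mark the whole element.
HSPA5: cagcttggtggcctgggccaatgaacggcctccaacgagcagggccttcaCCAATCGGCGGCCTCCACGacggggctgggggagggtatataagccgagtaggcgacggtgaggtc
CALR: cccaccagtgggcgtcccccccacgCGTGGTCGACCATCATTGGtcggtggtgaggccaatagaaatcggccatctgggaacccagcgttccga
HSP90B1: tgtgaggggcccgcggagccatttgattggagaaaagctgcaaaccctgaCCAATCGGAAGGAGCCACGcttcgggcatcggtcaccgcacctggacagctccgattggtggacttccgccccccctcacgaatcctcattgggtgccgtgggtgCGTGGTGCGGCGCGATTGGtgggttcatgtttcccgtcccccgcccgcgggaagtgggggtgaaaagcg

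Glycolysis and the genes of low oxygen showed the opposite departure. Of 18 tested glycolysis genes 1 passed as higher and 3 as lower with 6 libraries (median −0.14), 1 lower without untreated library 1, 2 or 3, and 9 higher and 4 lower with 5 (median 0.14). The median was 0.10 and 0.17 in treated libraries 1 and 2 and −0.64 in treated library 3, on the other side of the untreated mean for 9 of 18. The list of 18 carbonic anhydrases and hypoxia genes gave 1 higher and 2 lower with 6 libraries (median 0.17) and 11 higher and 2 lower with 5 (median 0.32), with treated library 3 on the other side for 11. For both lists the count with 6 libraries was near or below the 25.2% of all genes called, and 50.2% were called with 5. PGK1, which makes ATP in glycolysis, stood at 106, 105 and 105 FPKM untreated and 169, 189.8 and 48.4 FPKM treated. LDHA, lactate dehydrogenase, stood at 151, 156 and 159 FPKM untreated and 205, 212 and 48.5 FPKM treated. In both genes treated libraries 1 and 2 were above and treated library 3 below every untreated library. The changes with 5 libraries were 0.76 ± 0.052 (adjusted p = 0.000193) and 0.42 ± 0.037 (adjusted p = 0.000433), and with 6 they were 0.14 ± 0.49 (adjusted p = 0.857) and −0.27 ± 0.55 (adjusted p = 0.742).

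Several targets of the hypoxia factors were also lower in treated library 3 than in treated libraries 1 and 2, while VEGFA, given above, was highest in it. P4HA1, a prolyl hydroxylase of collagen, was at 16.2, 16.8 and 16.4 FPKM untreated and 42.4, 46.7 and 14.1 FPKM treated. NDRG1 was at 7.07, 7.95 and 7.75 FPKM untreated and 16.5, 20.7 and 4.51 FPKM treated, and BNIP3, a mitophagy receptor, at 13.3, 13.6 and 13.8 FPKM untreated and 24.97, 27.8 and 6.57 FPKM treated. BHLHE40, a clock-linked repressor, was at 9.598, 10.03 and 9.49 FPKM untreated and 34.3, 41.2 and 12.3 FPKM treated and HILPDA, a lipid droplet protein, at 6.86, 8.32 and 7.18 FPKM untreated and 24.2, 30.8 and 7.48 FPKM treated, so that treated library 3 lay near the untreated level for these. Of the list, CA2, carbonic anhydrase 2, fell in all 3 treated libraries, by 1.64 ± 0.086 (−1.56 ± 0.033 with 5), from 148, 145 and 150.1 untreated to 50.5, 48.7 and 41.5 FPKM treated. SLC16A1, the lactate and pyruvate carrier, fell by 0.60 ± 0.064 (−0.59 ± 0.05 with 5) from 71.8, 70.4 and 68.5 untreated to 48.6, 44.04 and 45.9 FPKM treated, also with treated library 3 among the others. VIM and the fibroblast marker sum given above were also lowest in treated library 3, and their part in this difference was not tested.

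**Figure D5:**
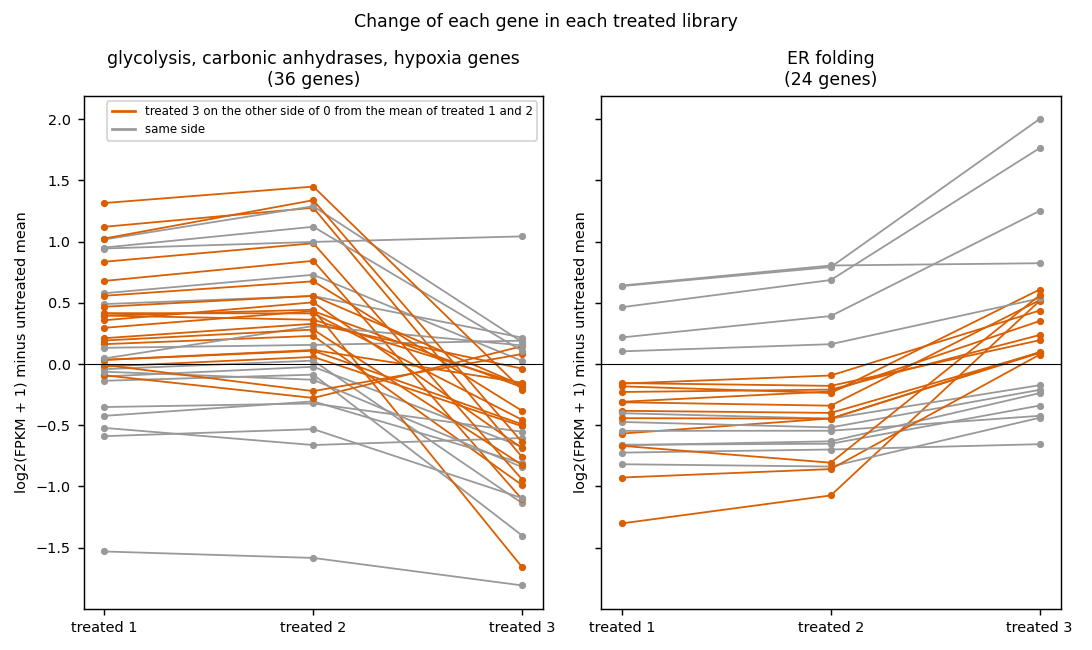
Log2(FPKM + 1) difference from the untreated mean in treated libraries 1, 2 and 3, one line per gene, for glycolysis with carbonic anhydrase and hypoxia genes (left, 36 genes) and ER folding genes (right, 24 genes); the order of the libraries has no meaning. Orange lines are genes for which treated library 3 lies on the other side of 0 from the mean of treated libraries 1 and 2, which is 20 genes on the left and 12 on the right.

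Of 26 tested genes of cholesterol synthesis and uptake 11 passed as lower and 2 as higher with 6 libraries (median −0.41), and 16 and 6 with 5 (median −0.25). The medians in treated libraries 1 to 3 were −0.27, −0.27 and −0.72. Without an untreated library the lower calls were 8, 8 and 8 and the higher 1, 0 and 0. HMGCS1, which makes HMG-CoA, stood at 22.6, 22.7 and 22.1 FPKM untreated and 7.69, 7.42 and 6.19 FPKM treated, all treated libraries well below the untreated level, and fell by 1.54 ± 0.086 (adjusted p = 0.00121, and −1.45 ± 0.037 with 5). NSDHL, a sterol dehydrogenase, fell by 1.11 ± 0.10 (−1.03 ± 0.066 with 5), and SQLE, squalene epoxidase, by 0.98 ± 0.16 (−0.79 ± 0.037 with 5). INSIG1, which holds the sterol sensor in the ER, fell by 1.63 ± 0.27 (−1.29 ± 0.048 with 5) from 45.2, 47.99 and 44.7 untreated to 17.6, 18.9 and 8.47 FPKM treated, lowest in treated library 3. SREBF2, the master factor of this list, had a change of 0.27 ± 0.14 (adjusted p = 0.225) with 6 libraries and 0.44 ± 0.037 (adjusted p = 0.0004) with 5. A sterol element, searched as TCACNCCAC on both strands and held by 1.13% of all promoter windows, was in 1 of the 26 windows of this list, that of SREBF2. These windows cover 20 of the 26 tested genes, and the others were not searched. The E-box CACGTG, the same on both strands and in 7.26% of all windows, was in 5 of the 26 windows of this list, in 2 of 12 of the alpha-arrestin list and in 4 of 17 of the MYC network. Such shares were not particular to these lists. The E-box was in 11 of 29 windows of the ribosome biogenesis list and 4 of 10 of the mitochondrial chaperones, and in 1 of 29 of the proteasome.

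Fatty acid synthesis gave 3 higher and 5 lower of 16 with 6 libraries and 5 and 6 with 5. Without an untreated library the calls were 0, 0 and 0 higher and 3, 3 and 4 lower. FASN, fatty acid synthase, stood at 148, 152 and 148 FPKM untreated and 74.6, 64.1 and 48.3 FPKM treated, fell by 1.27 ± 0.15 (−1.10 ± 0.064 with 5), and was lowest in treated library 3. ACACA, acetyl-CoA carboxylase, fell by 0.43 ± 0.063 (−0.41 ± 0.046 with 5) and the elongase ELOVL6 by 0.84 ± 0.08 (−0.83 ± 0.076 with 5).

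Splicing factors of the SR and hnRNP families help choose which exons are kept. Of 29 tested 23 passed as lower and none as higher with 6 libraries (median −0.62), and all 29 passed as lower with 5 (median −0.53). The lower calls were 13, 12 and 12 without untreated library 1, 2 or 3. SRSF3, an SR protein of exon recognition and mRNA export, stood at 69.6, 70.9 and 71.6 FPKM untreated and 32.8, 27.9 and 33.1 FPKM treated. The treated libraries were all well below the untreated, and SRSF3 fell by 1.16 ± 0.082 (adjusted p = 0.00152, and −1.20 ± 0.067 with 5). SRSF2 fell by 1.35 ± 0.21 (−1.60 ± 0.073 with 5) from 63.4, 69.2 and 72.95 untreated to 23.3, 20.7 and 37.6 FPKM treated. SRSF7 fell by 0.92 ± 0.063 (−0.89 ± 0.037 with 5). Among the hnRNPs, which coat nascent RNA, HNRNPM fell by 0.96 ± 0.072 (−0.90 ± 0.033 with 5) from 108, 105 and 104 untreated to 56.8, 55.4 and 49.5 FPKM treated and HNRNPD by 1.07 ± 0.12 (−0.93 ± 0.037 with 5). SRSF1 was called lower with 6 libraries but not without an untreated library (adjusted p = 0.0591 to 0.0649, and −1.18 ± 0.074, adjusted p = 0.000165, with 5). Several genes of this list and of the chaperone lists have processed copies elsewhere in the genome, and the authors' treatment of reads they share is unknown here.

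Host genes carry small nucleolar RNAs, which guide the modification of ribosomal RNA, in their introns. Of 15 tested, 9 passed as higher and 1 as lower with 6 libraries (median 0.71) and 11 and 1 with 5 (median 0.48), with higher calls of 5, 3 and 4 without untreated library 1, 2 or 3 and 5 without treated library 2. SNHG1 stood at 22.5, 23.1 and 23.8 FPKM untreated and 68.4, 71.2 and 89.9 FPKM treated, groups far apart, and rose by 1.67 ± 0.11 (adjusted p = 0.00126, and 1.55 ± 0.039 with 5). SNHG8 rose by 1.03 ± 0.16 (0.84 ± 0.038 with 5) from 15.7, 15.1 and 14.8 untreated to 27.99, 28.1 and 41.8 FPKM treated and EPB41L4A-AS1 by 1.44 ± 0.16 (1.28 ± 0.09 with 5). GAS5, at 39.9, 37.2 and 39.9 FPKM untreated and 62.01, 69.6 and 146 FPKM treated, was called with 6 libraries (1.12 ± 0.31, adjusted p = 0.0411, and 0.74 ± 0.059 with 5) but not without an untreated library (adjusted p = 0.112 to 0.123), nor was ZFAS1 (adjusted p = 0.105 to 0.116, and 0.65 ± 0.055, adjusted p = 0.0004, with 5). The host called lower was SNHG3 (−0.60 ± 0.11, and −0.49 ± 0.046 with 5), lost without untreated library 2 or 3 (adjusted p = 0.0538 and 0.056). The protocol in the labels describes no marking of the strand, so reads of antisense hosts and of genes on the other strand cannot be told apart.

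Of 31 nucleolar factors of ribosome biogenesis 17 passed as lower and none as higher with 6 libraries (median −0.38), and 27 lower with 5 (median −0.43). The lower calls were 8, 6 and 6 without untreated library 1, 2 or 3, and 9 and 10 without treated library 1 and 2. POP1, a subunit of RNase P and RNase MRP, stood at 10.4, 11.2 and 10.98 FPKM untreated and 3.42, 3.27 and 3.05 FPKM treated, groups far apart, and fell by 1.48 ± 0.069 (adjusted p = 0.000735, and −1.44 ± 0.051 with 5). UTP20, of the small subunit precursor, fell by 0.79 ± 0.086 (−0.81 ± 0.083 with 5). The abundant nucleolar proteins NCL and NPM1 fell by 0.75 ± 0.058 (−0.74 ± 0.035 with 5) and 0.61 ± 0.06 (−0.58 ± 0.03 with 5), from 181, 186 and 183 untreated to 112, 107 and 106 FPKM treated and from 418, 417 and 421 untreated to 279, 279.9 and 266 FPKM treated. Ribosomal protein genes gave 4 higher and 1 lower of 35 with 6 libraries (median −0.08) and 13 and 3 with 5 (median 0.09), with no higher call without an untreated library and 1 without treated library 1 or 2. The lower one, RPL6, fell by 0.47 ± 0.076 (−0.41 ± 0.036 with 5). MYC was called lower with 6 libraries (−0.65 ± 0.14, adjusted p = 0.0191, and −0.81 ± 0.052 with 5) but not without an untreated library (adjusted p = 0.0635 to 0.0791).

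Of 33 mitosis genes 17 passed as lower and none as higher with 6 libraries (median −0.30) and 25 lower with 5 (median −0.32), with lower calls of 11, 11 and 11 without untreated library 1, 2 or 3. CCNB1, cyclin B1, stood at 73.6, 72.1 and 70.8 FPKM untreated and 37.8, 38.9 and 22.9 FPKM treated, lowest in treated library 3, and fell by 1.14 ± 0.20 (adjusted p = 0.0106, and −0.89 ± 0.033 with 5). PLK1, the polo kinase, fell by 0.70 ± 0.057 (−0.70 ± 0.038 with 5) from 37.7, 39.3 and 38.5 untreated to 22.7, 23.9 and 23.3 FPKM treated. AURKA, the Aurora A kinase, fell by 0.80 ± 0.073 (−0.84 ± 0.055 with 5), and KIF20A, a kinesin of the central spindle, by 1.07 ± 0.14 (−0.92 ± 0.068 with 5). MKI67, at an adjusted p of 0.0128 with 6 libraries, was lost without an untreated library (adjusted p = 0.0537 to 0.0593, and −0.55 ± 0.035, adjusted p = 0.000171, with 5). Replication and G1/S genes gave 2 higher and 7 lower of 30 with 6 libraries (median −0.14) and 5 and 15 with 5. With an untreated library left out they were 0, 0 and 0 higher and 1, 1 and 1 lower, and without treated library 1 or 2 they were 3 and 2 lower. The share of all genes called was 25.2% with 6 libraries and 50.2% with 5. RRM2, of ribonucleotide reductase, fell by 0.53 ± 0.081 (−0.60 ± 0.043 with 5). CCND1, cyclin D1, stood at 24.3, 26.5 and 24.9 FPKM untreated and 10.1, 9.47 and 6.49 FPKM treated and fell by 1.46 ± 0.15 (adjusted p = 0.00288, and −1.28 ± 0.051 with 5).

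GADD45A, a growth arrest gene, rose by 1.66 ± 0.14 (1.497 ± 0.064 with 5) from 17.6, 15.4 and 16.96 untreated to 47.02, 50.4 and 68.2 FPKM treated. BBC3, the BH3-only protein PUMA, rose by 1.06 ± 0.19 (1.19 ± 0.17 with 5) from 5.25, 4.43 and 3.32 untreated to 9.66, 12.5 and 8.19 FPKM treated. DDB2, of DNA repair, rose by 0.92 ± 0.13 (0.999 ± 0.12 with 5). CDKN1A, the inhibitor p21, stood at 16.3, 15.6 and 15.8 FPKM untreated and 19.9, 23.2 and 37.2 FPKM treated. All treated libraries were above the untreated, and it passed with 5 libraries but not with 6 (0.67 ± 0.21, adjusted p = 0.0635 with 6, and 0.41 ± 0.066, adjusted p = 0.00365 with 5). These genes are given singly and no count over a growth arrest list is reported here. They do not stand for such a list as a whole.

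DUOX1, the oxidase of the study's title, stood at 0.0854, 0.0947 and 0.0962 FPKM untreated and 0.2502, 0.383 and 0.288 FPKM treated, under the filter and without overlap between the groups. Without a filter its change was 0.26 ± 0.054 (adjusted p = 0.0492 with 6 libraries and 0.0435 with 5). NOXA1, an activator of NADPH oxidase 1, rose by 0.75 ± 0.064 (adjusted p = 0.00179, and 0.72 ± 0.05 with 5), from 4.23, 4.32 and 4.53 untreated to 7.79, 7.92 and 8.302 FPKM treated. CYBA, the p22phox subunit, was called lower with 6 libraries but not without untreated library 1 or 2 (adjusted p = 0.0576 and 0.0566, and −0.35 ± 0.047, adjusted p = 0.0019, with 5). Of 27 genes that restrain ferroptosis 1 passed as higher and 6 as lower with 6 libraries, and 4 and 12 with 5. Of 24 that promote it 5 passed as higher and 6 as lower, and 6 and 11 with 5. With an untreated library left out they were 1, 0 and 1 higher and 2, 2 and 2 lower. Among all genes tested, 25.2% were called with 6 libraries and 50.2% with 5. GPX4 stood at 197, 190.3 and 194 FPKM untreated and 188, 207 and 148 FPKM treated, with a change of −0.11 ± 0.13 (adjusted p = 0.539, and 0.024 ± 0.048 with 5). ACSL4, a ligase that activates polyunsaturated fatty acids, was called with 6 libraries (−0.34 ± 0.066, adjusted p = 0.0153, and −0.38 ± 0.037 with 5) but not without an untreated library (adjusted p = 0.0689 to 0.0764). TFRC, the transferrin receptor, was called with 6 libraries (−0.69 ± 0.19, adjusted p = 0.0426, and −0.91 ± 0.088 with 5) and likewise lost (adjusted p = 0.103 to 0.133). CHAC1, which degrades glutathione and is a target of ATF4, stood at 6.84, 3.32 and 3.52 FPKM untreated and 32.1, 33.8 and 81.3 FPKM treated, and rose by 3.09 ± 0.40 (adjusted p = 0.00474, and 2.67 ± 0.26 with 5). The list of 11 transcripts used as markers of ferroptosis, to which CHAC1 belongs, gave 8 higher and 1 lower with 6 libraries (median 1.73) and 8 and 2 with 5 (median 1.39). It shares ATF3, ASNS and other genes with the stress lists above and is not separate from them. PTGS2 was at most 0.317 FPKM in any library.

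The 29 tested genes of glutathione, thioredoxin and the antioxidant factor NRF2 gave 2 higher and 11 lower with 6 libraries (median −0.26), 3 and 19 with 5, and 5, 5 and 5 lower without an untreated library. PRDX1, a peroxiredoxin of the cytosol, stood at 202, 191 and 208 FPKM untreated and 104, 88.6 and 66.9 FPKM treated, and fell by 1.22 ± 0.16 (adjusted p = 0.00453, and −1.05 ± 0.073 with 5). PRDX3, its mitochondrial relative, fell by 0.59 ± 0.056 (−0.58 ± 0.033 with 5) and GPX1, a glutathione peroxidase, by 0.72 ± 0.11 (−0.61 ± 0.046 with 5). KEAP1, which marks NRF2 for degradation, fell by 0.42 ± 0.059 (−0.42 ± 0.043 with 5), and GGT1, which splits extracellular glutathione, rose by 0.64 ± 0.10 (0.69 ± 0.10 with 5). HMOX1, the inducible haem oxygenase, split like HSPA5, at 24.3, 23.8 and 25.8 FPKM untreated and 8.36, 8.52 and 32.99 FPKM treated. Treated libraries 1 and 2 were below and treated library 3 above every untreated library. Its change was −0.82 ± 0.49 (adjusted p = 0.257) with 6 libraries and −1.44 ± 0.046 (adjusted p = 6.55e-05) with 5. HMOX2, the constitutive form, fell by 0.46 ± 0.062 (−0.49 ± 0.04 with 5), and of the enzymes of haem synthesis UROD and CPOX fell by 0.51 ± 0.065 (−0.47 ± 0.043 with 5) and 0.59 ± 0.09 (−0.50 ± 0.035 with 5). PPOX, another of them, rose by 0.46 ± 0.071 (0.44 ± 0.064 with 5).

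The mitochondrial genome encodes subunits of the respiratory chain. Of its 13 tested genes 6 passed as lower and none as higher with 6 libraries (median −0.27), and 7 lower with 5. The lower calls were 3, 4 and 3 without untreated library 1, 2 or 3. MT-ND2, of complex I, stood at 1562, 1521 and 1653 FPKM untreated and 751, 693 and 791 FPKM treated and fell by 1.08 ± 0.081 (adjusted p = 0.00152, and −1.13 ± 0.057 with 5). MT-ND1 stood at 1487, 1458 and 1585 FPKM untreated and 786, 778 and 900.4 FPKM treated, with a change of −0.88 ± 0.087 (−0.95 ± 0.049 with 5) that was called except in the fit without a filter (adjusted p = 0.0527). MT-CO1, of complex IV, stood at 8533, 8298 and 8496 FPKM untreated and 8488, 8779 and 8103 FPKM treated, overlapping groups with a change of 0.0018 ± 0.082 (adjusted p = 0.989, and 0.032 ± 0.06 with 5). The share of all fragments from the mitochondrial genome was 4.85% to 5.16% over the 6 libraries. MT-ND6, on the other strand of the circle, was at 1902, 1882 and 1864 FPKM untreated and 1953, 2004 and 1832 FPKM treated. Without strand its reads cannot be told from those of the opposite strand. Of 28 nuclear genes of oxidative phosphorylation 7 passed as lower and none as higher with 6 libraries (median −0.19), 17 lower with 5, and 2, 2 and 2 without an untreated library. Among all genes tested, 13.5% were called lower with 6 libraries and 26.7% with 5. SDHB, of complex II, fell by 0.50 ± 0.077 (−0.44 ± 0.051 with 5) and UQCRFS1, of complex III, by 0.54 ± 0.072 (−0.49 ± 0.048 with 5).

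The remaining lists are given beside the 25.2% of all genes called with 6 libraries and the 50.2% called with 5, and their shares lay on both sides of these. G1 cyclins and inhibitors gave 3 higher and 1 lower of 15, with none higher without an untreated library, and 5 and 4 with 5. The BCL2 family gave 1 higher and 2 lower of 16 (3 and 4 with 5), and the lower calls were 1, 1 and 0 without untreated library 1, 2 or 3. The MYC network gave 1 and 2 of 12 (2 and 6 with 5), with none higher and 1 lower in each case that left out an untreated library. Iron and haem genes gave 1 higher and 5 lower of 22, with 3 lower without untreated library 2 or 3, and 4 and 9 with 5. Autophagy and lysosome genes gave 2 higher and 3 lower of 22 (5 and 7 with 5), and none in either direction once an untreated library was left out. Metallothioneins and zinc transporters gave 2 lower of 7 (4 with 5), and 1 with an untreated library left out. Among them SLC39A10, a zinc importer, fell by 0.75 ± 0.11 (−0.64 ± 0.059 with 5). The 10 NF-kB genes gave 1 higher and 1 lower (2 and 2 with 5), of which the lower call was lost without an untreated library. The 10 interferon genes gave 1 and 1 (2 and 2 with 5), both lost in the same way. The 3 NADPH oxidase genes gave 1 and 1 (1 and 2 with 5), and the lower call was lost without untreated library 1 or 2.

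AKNA, an AT-hook protein of the centrosome, rose by 1.84 ± 0.27 (1.52 ± 0.11 with 5) from 1.02, 1.14 and 1.02 untreated to 4.32, 5.56 and 10.6 FPKM treated. WDR31 rose by 1.79 ± 0.11 (1.69 ± 0.083 with 5) from 1.04, 1.07 and 1.03 untreated to 5.204, 6.06 and 7.11 FPKM treated. The 15 YAP and angiomotin genes gave 0 higher and 2 lower with 6 libraries, and 3 and 3 with 5. AMOT, the angiomotin that binds YAP, went from 143, 143 and 139.7 untreated to 63.5, 58.3 and 37.1 FPKM treated and fell by 1.44 ± 0.19 (adjusted p = 0.00504, and −1.21 ± 0.044 with 5). ZC3HAV1, an antiviral RNA-binding protein, fell by 1.31 ± 0.11 (−1.19 ± 0.044 with 5) and FAM84B by 1.27 ± 0.057 (−1.29 ± 0.036 with 5), from 32.2, 31.7 and 32.8 untreated to 12.8, 12.4 and 13.1 FPKM treated. Of lncRNA genes, AL354872.2 rose by 2.10 ± 0.33 (1.69 ± 0.053 with 5) from 2.48, 2.42 and 2.33 untreated to 10.2, 9.79 and 24.7 FPKM treated. AC124067.2 fell by 1.52 ± 0.089 (−1.48 ± 0.079 with 5) from 15.6, 14.9 and 16.2 untreated to 5.46, 4.47 and 4.43 FPKM treated. As no strand was marked, reads of these lncRNA genes cannot be told from those of any gene on the other strand.

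The genes that set treated library 3 apart were described without a test, since they were ranked by that difference. Against the mean of treated libraries 1 and 2, 123 genes were at least 2-fold higher and 222 at least 2-fold lower on log2(FPKM + 1). The top of the higher side was INHBE (2.91 on the log2 scale), DHRS2, a short-chain dehydrogenase (2.65), HMOX1 (1.85), FUT1, a fucosyltransferase (1.74), and HSPA5 (1.70). DHRS2 stood at 1.39, 0.998 and 1.12 FPKM untreated and 3.84, 4.23 and 30.6 FPKM treated. The lower side was led by PFKFB4, which sets a regulator of glycolysis (−2.50), STC1 (−2.18), LDHA (−2.08), ALDOC, an aldolase (−1.96), and NOG, a BMP antagonist (−1.92). PFKFB4 stood at 5.08, 5.68 and 5.66 FPKM untreated and 12.2, 13.3 and 1.43 FPKM treated, so that treated libraries 1 and 2 were above and treated library 3 well below the untreated. The largest fall called with 5 libraries and not with 6 was of CHPF2, of chondroitin synthesis, at 12.4, 13.5 and 12.6 FPKM untreated and 4.17, 4.097 and 15.4 FPKM treated.

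Some changes differed from those of the HepG2-labelled libraries under the same treatment and time. The interaction term of a limma fit over all 12 libraries passed for 4317 of 15518 genes (27.8%), which is the background for the single genes here. Of 13 genes tested for it here, 10 passed. The 13 were picked to show where the lines differ, so this count is not to be set against that share. HSPA1B fell by 3.03 in the Huh7-labelled libraries against a change of −0.59 in the HepG2-labelled ones, a difference of −2.44 ± 0.13 (adjusted p = 2.82e-06). The HepG2-labelled values of HSPA1B were 45.0, 40.1 and 46.9 FPKM untreated and 27.4, 27.3 and 31.7 FPKM treated, so that the untreated levels differed between the lines as well. DDIT4 differed by 2.70 (adjusted p = 0.000605), ATF3 by 3.16 (adjusted p = 0.000283) and CHAC1 by 3.57 (adjusted p = 0.000448), all higher in the Huh7-labelled change. In the HepG2-labelled libraries DDIT4 averaged 286 FPKM untreated and 330 FPKM treated, and that untreated mean is far above its untreated Huh7-labelled values. CHAC1 averaged 1.075 FPKM untreated and 0.47 FPKM treated there, low values at which this scale understates a change. HMGCS1 differed by −0.95 (adjusted p = 0.000158) and INSIG1 by −1.84 (adjusted p = 0.00159). For HMOX1 the difference was −0.51 (adjusted p = 0.522) with treated library 3 and −1.13 (adjusted p = 9.94e-06) without it, and for CCND1 the adjusted p was 0.134 with it and 0.0449 without. For DUOX1, in a fit without a filter, it was −0.25 (adjusted p = 0.116).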

How the data were processed

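The data were deposited by the authors as one table of FPKM per gene and library, with gene lengths and names. Reads were handled with CASAVA and fastp and the build was hg38, per the submitters' processing notes, with versions, aligner and counter not given in the sources used here. RNA was captured on poly-T beads, primed with random hexamers and ligated to adaptors, with no step that marks strand, per the labels' protocols. FPKM times gene length gave whole multiples of a step per library, within 0.05 fragments for 100% of values, from which fragment totals were taken; the totals implied by the step were 1.09 to 1.10 times untreated and 1.15 to 1.17 times these totals treated. What this excess holds, and whether the table has every row, is not known. The larger excess lowers treated FPKM against untreated, which bears on the balance of higher and lower calls.

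Genes that reached 1 FPKM in 3 or more of the 6 Huh7-labelled libraries (13563 of 58735) were tested on log2(FPKM + 1) with limma 3.58.1 (trend, two-sided) in R 4.3.3, Benjamini-Hochberg threshold 0.05, with 6 libraries (4 residual degrees of freedom) and with 5 (3). Alternatives were a pseudocount of 0.1, no filter or 5 FPKM, TPM and median-of-ratios scaling, voom on the recovered fragments, a 12-library fit, array weights, a replicate block, and each library left out. The labels do not say that replicate numbers pair samples. The correlations of same-numbered deviations were 0.0105, −0.0067 and 0.0112. These deviations are from group means that treated library 3 pulls, so they cannot settle whether samples were paired. The fits were run on data simulated from the untreated means and spread, with few genes changed. No simulated library departed as treated library 3 does, so the simulation cannot show how the fits behave with it.

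The 47 lists (40 response, 7 marker; all 857 symbols found, 21 by an older symbol) and the members were chosen with earlier results of these data known. Genes are named by these rules: the 15 largest coding rises and falls and up to 5 lncRNAs each way (called, groups apart, higher mean at least 2 FPKM); 10 each way called only with 5 libraries; 10 each way for treated library 3 against the other treated libraries (highest library at least 5 FPKM); up to 5 called members per list by smallest p; and the oxidase, ferroptosis and regulator genes of a set list. Other list members appear with their values. Only part of those selected is printed, and some are not reported here.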

Additional observations from a re-analysis of the deposited data

Results flagged for a closer look

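For 10 genes, a test of the difference itself, the interaction of treatment and line in limma over all 12 libraries, found that the change under geniposide differed between Huh7-labelled and HepG2-labelled libraries. The genes tested were picked to show where the lines differ. The values are the Huh7-labelled change minus the HepG2-labelled change on log2(FPKM + 1). Lower in the Huh7-labelled change were HSPA1B (−2.44), HSPA8 (−1.01, adjusted p = 5.9e-05), HMGCS1 (−0.95) and INSIG1 (−1.84). Higher in it were ATF3 (3.16), CHAC1 (3.57), DDIT4 (2.70), SLC7A11 (2.11, adjusted p = 0.000725), DDIT3 (1.43, adjusted p = 0.000136) and TXNIP (0.60, adjusted p = 0.0137). All 10 passed also without treated library 3. The untreated levels of HSPA1B and DDIT4 differed between the lines, and CHAC1 was low in the HepG2-labelled libraries, as given above. The groups hold 3 libraries each, too few for a check of single outlying libraries by gap.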

How the results depend on the processing

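The 3418 calls with 6 libraries became 2129 without a filter, 5348 in a 12-library fit and 6990 with array weights; leaving out one library gave 1146 to 6806. The lowest counts came without untreated library 1, 2 or 3 (1291, 1146 and 1158), 2326 and 2121 came without treated library 1 and 2, and the highest without treated library 3. With the replicate number as a block there were 1909 calls. The labels do not say whether the numbers pair samples. The 5-library counts stayed within 1.5 times under every alternative run, from 4701 with the replicate block to 7815 with voom. The called list members (278) were 492 with array weights and 139 to 496 with one library left out.

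Higher genes were 46.3% of the calls; TPM scaling gave 61.4% with 6 libraries (2096 higher, 1319 lower) and 59.0% with 5, against 46.9%, and a filter at 5 FPKM 35.5% (937 and 1703) and 36.5%. TPM scaling moved the median of all genes by less than 0.1. It turned the sign of the list medians of iron and haem genes (−0.058 to 0.013), NADPH oxidases (−0.047 to 0.031) and interferon genes (−0.0285 to 0.037).

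Some uncalled changes reversed. With one library left out, PFKFB4 ranged from −0.19 to 1.09, STC1 from −0.047 to 1.11, PGK1 from −0.21 to 0.76, BNIP3 from −0.054 to 0.91, HSF1 from −0.0078 to 0.17, LDHA from −0.63 to 0.42, NOG from −0.48 to 0.49, GPX4 from −0.22 to 0.024, AIFM2 from −0.17 to 0.020, NCOA4 from −0.073 to 0.0085 and MT-CO1 from −0.026 to 0.032. The opposite ends came from leaving out treated library 3 for LDHA, NOG and GPX4, treated library 1 or 2 for PFKFB4, STC1, PGK1, BNIP3, HSF1 and AIFM2, and untreated library 1 for NCOA4. Array weights gave LDHA 0.36, NOG 0.45 and GPX4 0.0012, TPM scaling gave NCOA4 0.044, and median-of-ratios scaling gave FTL −0.0049 and MT-CO1 −0.025. The cause was not tested. Leaving a treated library out of the 5 leaves 1, assumed to vary like the untreated ones.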
